A study of Saccharomyces cerevisiae with 4 samples.

Results

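The genes described here move potassium and sodium across yeast membranes or encode the Hal kinases that act on potassium uptake. They were chosen by systematic name from a list of 10: TRK1 (YJL129C), TRK2 (YKR050W), TOK1 (YJL093C), ENA1 (YDR040C), ENA2 (YDR039C), ENA5 (YDR038C), NHA1 (YLR138W), KHA1 (YJL094C), HAL5 (YJL165C) and SAT4 (YCR008W). Of these, 8 had a row among the 5799 genes of the table, and each had a value on all 4 arrays. ENA1, the sodium pump gene best known for its response to salt, and NHA1, the gene of a plasma membrane antiporter that exchanges sodium or potassium for protons, were not analysed here.

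The strain was Saccharomyces cerevisiae BY4741, a haploid of mating type a with the alleles his3Δ1, leu2Δ0, LYS2 and met15Δ0. The labels number its URA3 deletion ura3Δ0, ura3Δ1, ura3Δ2 and ura3Δ3 over the 4 arrays. Untreated cultures in rich medium (YPD) at 28 °C and an absorbance of 0.6 were compared with cultures given 30 mM acetic acid for 2 h, both from this strain. Both RNAs were hybridised together on 4 two-colour arrays. Cy5 arrays 1 and 2 had the acid-treated RNA in Cy5, Cy3 arrays 1 and 2 had it in Cy3, and the number is the replicate number of the labels. The strain is the only one used, so every group shares its deletions.

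Values are log2 ratios of acid-treated over untreated RNA, so that 1 is a doubling. The direction and the base are likely rather than stated. The direction rests on targets of Haa1, a transcription factor of the weak-acid response. Of 7 such targets picked for this purpose, 6 had a row and 5 were tested. All 5 lay above 0, with a median of 4.48. Read the other way round, each sign given here would turn. A ratio carries no level, so neither the strain nor the order of expression of these genes can be read from the values. The arrays held 5133 to 5505 values each, and their pairwise Pearson correlation across genes, which are not independent replicates, ran from 0.41 to 0.80. The 3 lowest correlations, 0.41, 0.47 and 0.62, were those of Cy3 array 1 with the others.

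Yeast takes up potassium through Trk1 and Trk2 and drives that uptake with the membrane potential made by the plasma membrane proton pump. Sodium and excess potassium leave through the Ena pumps and Nha1, and the channel Tok1 passes potassium outward. Hal5 and Sat4, also called Hal4, are related kinases that keep the Trk transporters active at the plasma membrane, and loss of both makes cells depend on high external potassium. A weak acid such as acetic acid crosses the membrane undissociated and releases protons inside the cell.

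After acetic acid, the transcripts of both Hal kinases rose, while that of the main potassium importer TRK1 and the signal of the sodium pump gene ENA2 fell. HAL5 stood at 4.40 times its untreated level (95% interval 3.47 to 5.58) and SAT4 at 1.78 times (1.39 to 2.28). TRK1 stood at 0.593 times (0.455 to 0.771) and ENA2 at 0.521 times (0.368 to 0.738). These intervals take the arrays as independent. Among these genes, only HAL5 kept its call in every fit that left out an array and with same-numbered arrays averaged. TRK2, TOK1, ENA5 and KHA1 did not pass an adjusted p of 0.05. In RNA of whole cultures a change in every cell and a change in a share of the cells cannot be told apart. The test was limma's fit of the mean ratio against 0 over 5291 genes with at least 3 values, with Benjamini-Hochberg adjustment over all of them.

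Thus 4 of 8 members passed, 2 higher and 2 lower, beside 10.9% of all genes tested (8.85% higher and 2.02% lower). The members were chosen with earlier results of these data known, so these shares are a description and not a test. Of the calls over all genes, 81.4% were higher, against 66.9% after quantile normalization of the arrays. The members' median ratio was 0.07, and that of all genes tested was -0.04. An unadjusted p under 0.05 was reached by 5 of 8 members, KHA1 being the fifth, and by 29.8% of all genes tested. The same sign on all 4 arrays was seen for 5 of 8 members and for 42.2% of the 4896 genes with 4 values. The labels' design calls the arrays biological replicates. The labels do not say whether arrays of the same number carry the same RNA. With such arrays averaged, which leaves n = 2, HAL5 alone among the members passed.

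**Figure D1:**
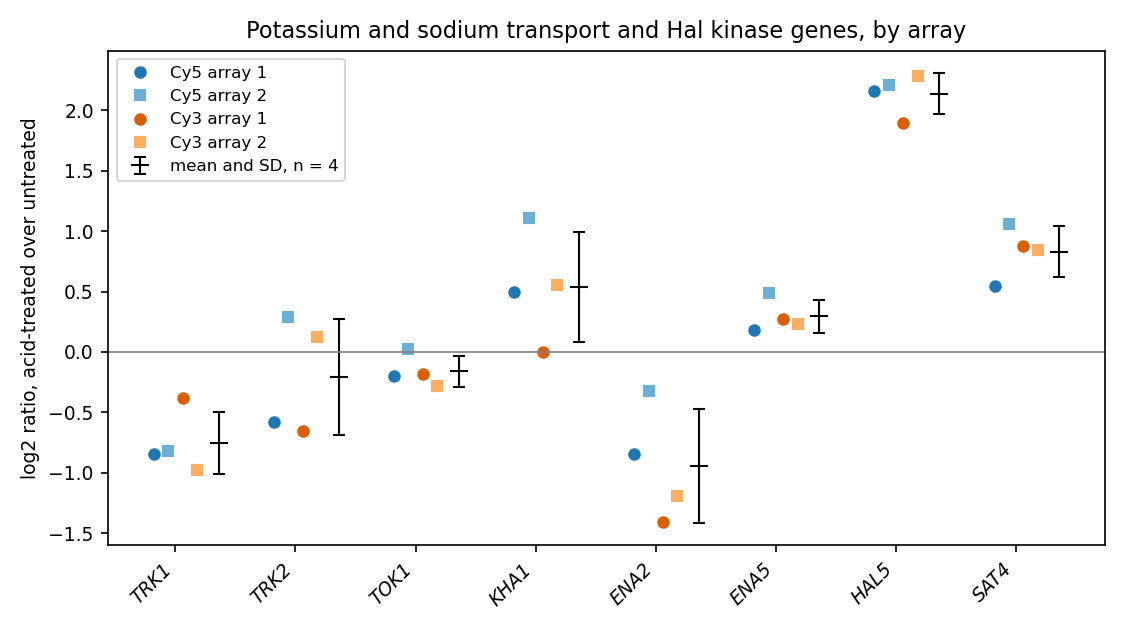
Log2 ratio of acid-treated over untreated RNA for each member on each array, with circles for replicate 1, squares for replicate 2, blue for the Cy5 arrays and orange for the Cy3 arrays; the black bar is the mean and SD of 4 arrays. The HAL5 points lie between 1.90 and 2.29, above every point of the other members, and TRK2 has 2 points on each side of 0.

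HAL5, the kinase gene named for the halotolerance that extra copies give, had log2 ratios of 2.16 and 2.21 on Cy5 arrays 1 and 2 and of 1.90 and 2.29 on Cy3 arrays 1 and 2. The values lie close together in both dye orientations, and the lowest is well above the highest value of any other member, 1.11 for KHA1. The mean was 2.14 ± 0.17 (SD, n = 4, as for all means below unless stated), with an adjusted p of 0.000436 in limma. Among 5291 genes HAL5 ranked 89 from the highest mean ratio, and 13.3% of them had a smaller SD than its own. The call held in each of the 4 fits that left out 1 array, with adjusted p from 0.000166 to 0.0101, and in the limma test against a minimum change of 1.5-fold.

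SAT4 had log2 ratios of 0.54 and 1.06 on the Cy5 arrays and 0.88 and 0.84 on the Cy3 arrays. All 4 values were above 0, with Cy5 array 1 the lowest. The mean was 0.83 ± 0.21 (adjusted p = 0.0196 in limma), which placed SAT4 394 from the highest of all genes tested. The call was lost without Cy5 array 1 (mean 0.93, adjusted p = 0.0671), without Cy5 array 2 (0.75, 0.0991) or without Cy3 array 2 (0.83, 0.111). It held without Cy3 array 1, at 0.82 and 0.0189.

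TRK1, the high-affinity potassium transporter, had log2 ratios of -0.84 and -0.82 on the Cy5 arrays and -0.38 and -0.97 on the Cy3 arrays. Cy3 array 1 was the least changed, and the other 3 were close together. The mean was -0.75 ± 0.26 (adjusted p = 0.0323 in limma), ranked 303 from the lowest. Without Cy3 array 1 it was -0.88, with an adjusted p of 0.00900. The call was lost without Cy5 array 1 (adjusted p = 0.151), Cy5 array 2 (0.132) or Cy3 array 2 (0.160), with means of -0.73, -0.73 and -0.68.

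TRK2, the less active relative of TRK1, had log2 ratios of -0.58 and 0.29 on the Cy5 arrays and -0.65 and 0.12 on the Cy3 arrays. Both arrays numbered 1 were below 0 and both numbered 2 above it, in either dye orientation. The mean was -0.21 ± 0.48, with a 95% interval of -0.71 to 0.30 and an adjusted p of 0.532 in limma. This spread was wider than that of 69.8% of genes tested. A fall of TRK2 to 0.609 times and a rise to 1.23 times both lie within that interval.

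TOK1, the outward potassium channel, had log2 ratios of -0.20 and 0.02 on the Cy5 arrays and -0.19 and -0.28 on the Cy3 arrays. The values were near 0 on each array, and 7.35% of genes tested had a smaller SD. The mean was -0.16 ± 0.13 (adjusted p = 0.455 in limma), and the 95% interval ran from 0.711 to 1.13 times the untreated level. A change of TOK1 as large as the mean change of TRK1, ENA2, SAT4 or HAL5 lies outside that interval.

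KHA1, proposed to exchange potassium for protons at internal membranes, lies next to TOK1 on its chromosome. Its log2 ratios were 0.50 and 1.11 on the Cy5 arrays and -0.004 and 0.56 on the Cy3 arrays. Cy3 array 1 stood near 0 and the other 3 above it. The mean was 0.54 ± 0.45 (unadjusted p = 0.0361, adjusted p = 0.140 in limma). Without Cy3 array 1 the mean was 0.72 and the adjusted p 0.0374, so that KHA1 passed without this array and not with it.

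ENA2 and ENA5 encode P-type ATPases that export sodium and lithium, and they lie side by side with ENA1 in a tandem cluster of near-identical copies. ENA2 had log2 ratios of -0.84 and -0.32 on the Cy5 arrays and -1.41 and -1.19 on the Cy3 arrays. All were below 0, and both Cy3 arrays were lower than both Cy5 arrays, at means of -1.30 and -0.58. The mean of 4 was -0.94 ± 0.47 (adjusted p = 0.0383 in limma), ranked 137 from the lowest. A term for the dye did not pass for ENA2 (unadjusted p = 0.0765, adjusted p = 0.665), which was the lowest adjusted p for the dye among the members; 0.227% of all genes passed on this term. Without Cy5 array 1 or Cy3 array 2 the call was lost (adjusted p = 0.134 and 0.177, means -0.97 and -0.86). It held without Cy5 array 2 (-1.15, 0.0486) and without Cy3 array 1 (-0.79, 0.0408).

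ENA5 had log2 ratios of 0.18 and 0.49 on the Cy5 arrays and 0.28 and 0.23 on the Cy3 arrays. All 4 were above 0, in the opposite direction to ENA2 on the same arrays. The mean was 0.29 ± 0.13, with a 95% interval of -0.04 to 0.63 and an adjusted p of 0.201 in limma. Since the copies are near-identical and the probes were not analysed here, the share of each copy, ENA1 included, in either signal is uncertain.

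**Figure D2:**
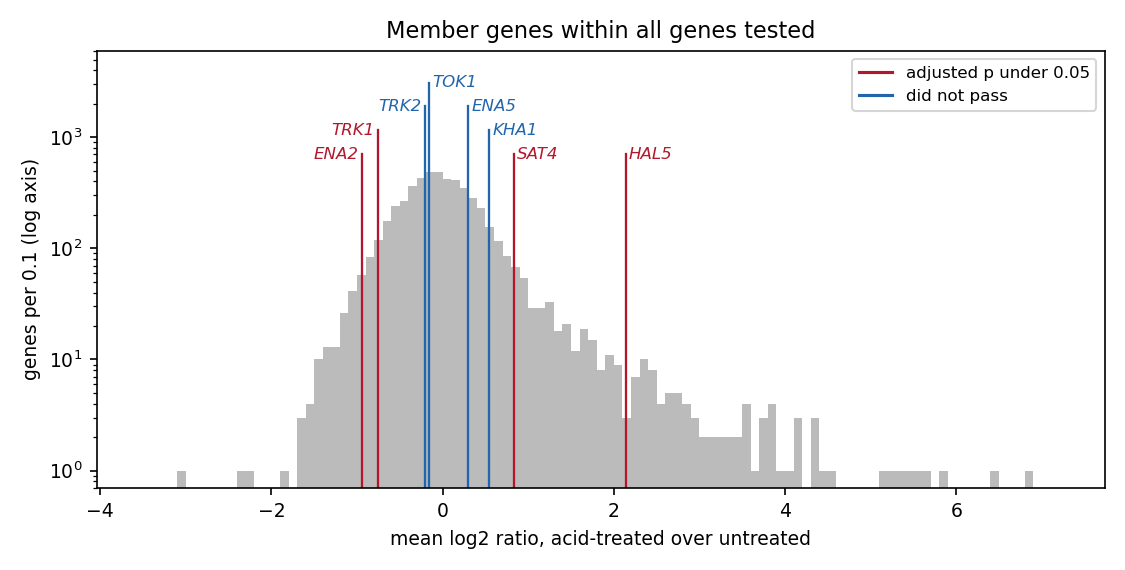
Number of genes per 0.1 of mean log2 ratio (log axis) for the 5291 genes tested, in grey, with a vertical line at the mean of each member, red where the adjusted p was under 0.05 and blue where it was not. HAL5 at 2.14 lies in the upper tail, SAT4 at 0.83 at the upper shoulder, and TRK1 and ENA2 at -0.75 and -0.94 at the lower one.

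Related members were set side by side array by array. ENA2 was lower than ENA5 on every array, by log2 differences of -1.03 and -0.81 on the Cy5 arrays and -1.68 and -1.42 on the Cy3 arrays, a mean of -1.24 ± 0.39. This compares signals, in which the share of each near-identical copy is uncertain. HAL5 exceeded SAT4 on every array, by 1.62 and 1.15 on the Cy5 arrays and 1.02 and 1.44 on the Cy3 arrays, a mean of 1.31 ± 0.27. TRK1 minus TRK2 was -0.26 and -1.11 on the Cy5 arrays and 0.27 and -1.10 on the Cy3 arrays, so that the order turned on 1 array, and the mean was -0.55 ± 0.68. A two-sided exact sign-flip permutation test over 4 arrays cannot go below p = 0.125. It gave this smallest value for the first 2 pairs and 0.375 for the third (0.188, 0.188 and 0.375 adjusted over the 3 pairs).

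**Figure D3:**
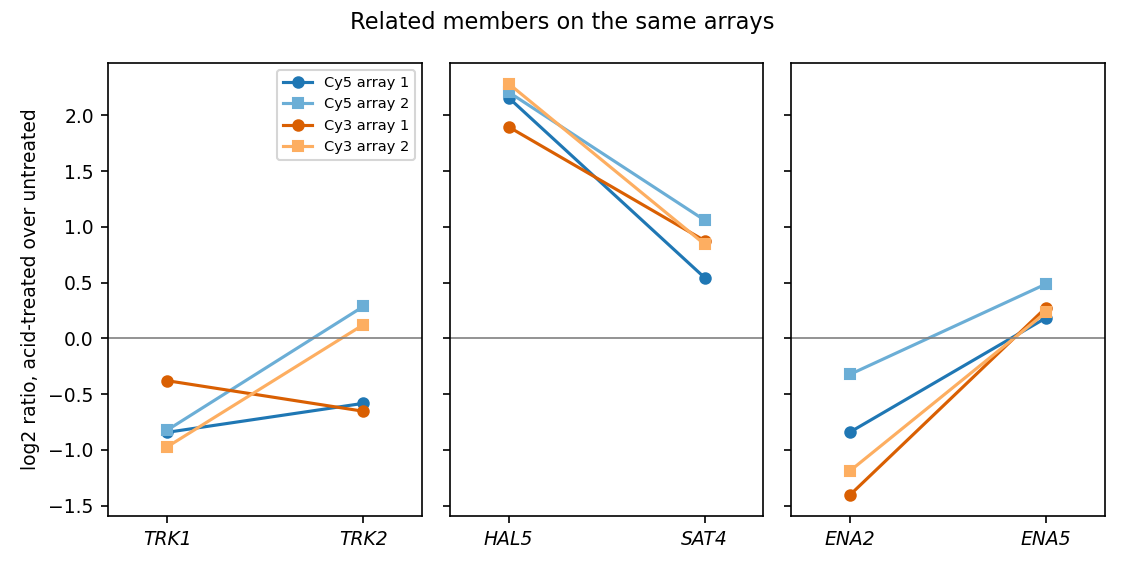
Log2 ratios of 3 pairs of related members, with a line joining both values of 1 array. The HAL5 to SAT4 lines all fall and the ENA2 to ENA5 lines all rise across 0, while 1 of the TRK1 to TRK2 lines runs against the others.

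In order of mean ratio the members ran from HAL5 (2.14) through SAT4 (0.83), KHA1 (0.54), ENA5 (0.29), TOK1 (-0.16), TRK2 (-0.21) and TRK1 (-0.75) to ENA2 (-0.94). The arrays of HAL5 did not overlap those of its neighbour SAT4, nor did those of ENA5 overlap those of TOK1. The arrays of SAT4 and KHA1, KHA1 and ENA5, TOK1 and TRK2, TRK2 and TRK1, and TRK1 and ENA2 overlapped.

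**Figure D4:**
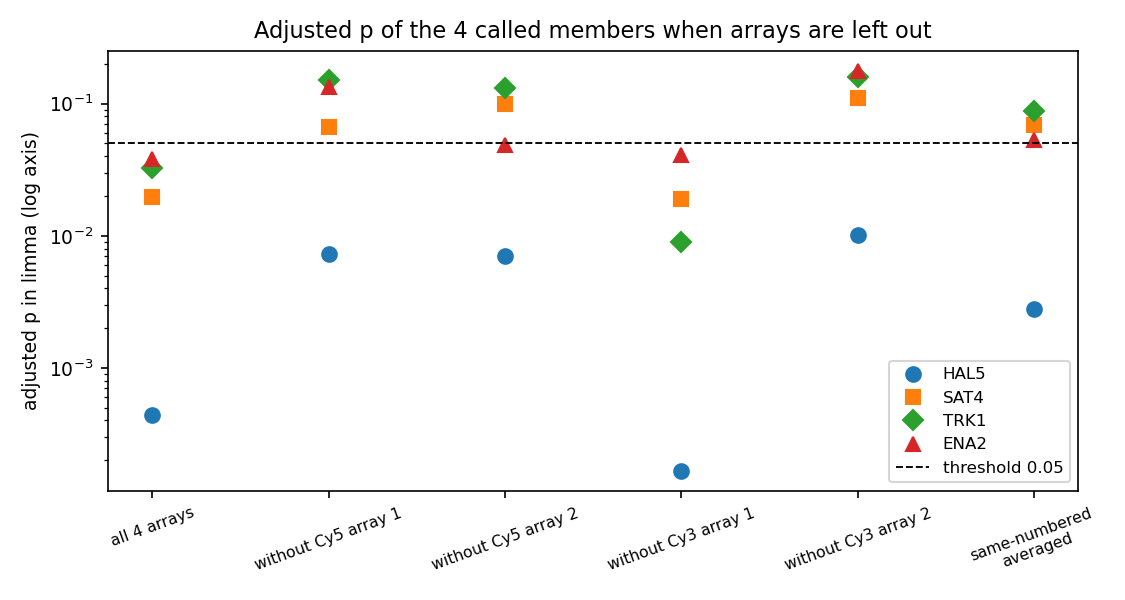
Adjusted p in limma (log axis) of the 4 members past the threshold, with all 4 arrays, without each array and with same-numbered arrays averaged; the dashed line is the threshold of 0.05. HAL5 stays below the line in each fit, at 0.0101 or less, and the other 3 cross it in at least 3 of the 5 fits with fewer values.

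The kinases most related to Hal5 and Sat4 form the Npr1/Hal5 family, in which several members act on permeases and pumps of the plasma membrane. Of 8 other genes of this family 6 were tested: 2 rose, 0 fell in limma (0 also at an unadjusted p under 0.05) and the remaining 4 missed the threshold. Of all genes tested, 8.85% were higher and 2.02% lower. The median ratio of the 6 was 0.29. The little characterised kinase gene RTK1 had log2 ratios of 1.26 and 1.21 on the Cy5 arrays and 1.59 and 1.64 on the Cy3 arrays. All 4 values exceeded the highest of SAT4, and the mean was 1.43 ± 0.22 (adjusted p = 0.00271 in limma). Its call held in each fit that left out 1 array (adjusted p from 0.00245 to 0.0327).

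PTK2, whose kinase activates the plasma membrane proton pump Pma1, had ratios of 0.47, 0.57, 1.15 and 0.73 in the same order, with a mean of 0.73 ± 0.30 (adjusted p = 0.0414). Without Cy3 array 1 it was 0.59 and still passed, and without each of the others it did not (adjusted p from 0.115 to 0.169). NPR1, whose kinase stabilises amino acid and ammonium permeases, had the lowest mean of the family, -0.69 ± 0.83, with -1.83 on Cy3 array 1 and 0.02 on Cy5 array 2. KKQ8, the duplicate of HAL5 in the yeast genome, had ratios of -0.25, 0.20, -0.29 and 0.001 in that order (mean -0.09 ± 0.23, adjusted p = 0.727). All of its arrays lay below all of those of HAL5, as did those of every other measured gene of this family. KKQ8 is named for its kinship with HAL5 and after its values were seen.

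Among 20 tested genes that regulate the Trk and Ena transporters or salt tolerance, of 22 listed, 2 rose, 0 fell in limma and the remaining 18 missed the threshold. The median was 0.07. The share that passed was 10%, against 10.9% of all genes tested; at an unadjusted p under 0.05 there were 6 higher and 3 lower regulators, beside 29.8% of all genes in either direction. RIM101, a repressor that is processed at neutral to alkaline pH, had ratios of 0.85 and 1.15 on the Cy5 arrays and 1.02 and 1.14 on the Cy3 arrays (mean 1.04 ± 0.14, adjusted p = 0.00705 in limma). NRG1, a repressor that acts on ENA1 and on glucose-repressed genes and is itself known as a target of Rim101, had ratios of 0.72, 1.19, 1.58 and 1.65 in the same order (1.28 ± 0.43, adjusted p = 0.0118). Both transcripts were higher on every array, and a link between them was not tested. Without Cy5 array 2 or Cy3 array 2 neither passed (adjusted p = 0.0524 and 0.0636 for RIM101, 0.0633 and 0.0816 for NRG1). HAL9, a factor that raises ENA1 expression, had the lowest mean, -0.91 ± 0.99 (adjusted p = 0.155 in limma). Its ratios were -0.18 and -0.25 on the Cy5 arrays and -2.32 and -0.90 on the Cy3 arrays. Both Cy3 arrays were thus lower than both Cy5 arrays, with Cy3 array 1 the lowest by far.

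Of 12 other cation and proton transporter genes 9 were tested and 0 passed in limma, beside 10.9% of all genes tested. An unadjusted p under 0.05 was reached by 5 of the 9, 2 higher and 3 lower, beside 29.8% of all genes. Their median ratio was -0.05, and that of all genes tested was -0.04. The proton pump gene PMA1, whose product makes the membrane potential for potassium uptake, had the highest mean. Its ratios were 0.34 and 1.70 on the Cy5 arrays and 0.38 and 0.79 on the Cy3 arrays (0.80 ± 0.63, unadjusted p = 0.0180, adjusted p = 0.0969). All were above 0, with 1 array far higher than the rest. VHC1, a vacuolar cotransporter of potassium and chloride, had the lowest, with ratios of -0.43, -0.29, -1.48 and -1.41 in that order (-0.90 ± 0.63, adjusted p = 0.0732). As with ENA2 and HAL9, both Cy3 arrays were lower than both Cy5 arrays. A term for the dye had an unadjusted p of 0.0102 for VHC1 and did not pass (adjusted p = 0.600 in limma). Other genes, NPR1 and NHX1 among them, showed the same order of arrays, and others, such as RTK1 and NRG1, the opposite order.

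**Figure D5:**
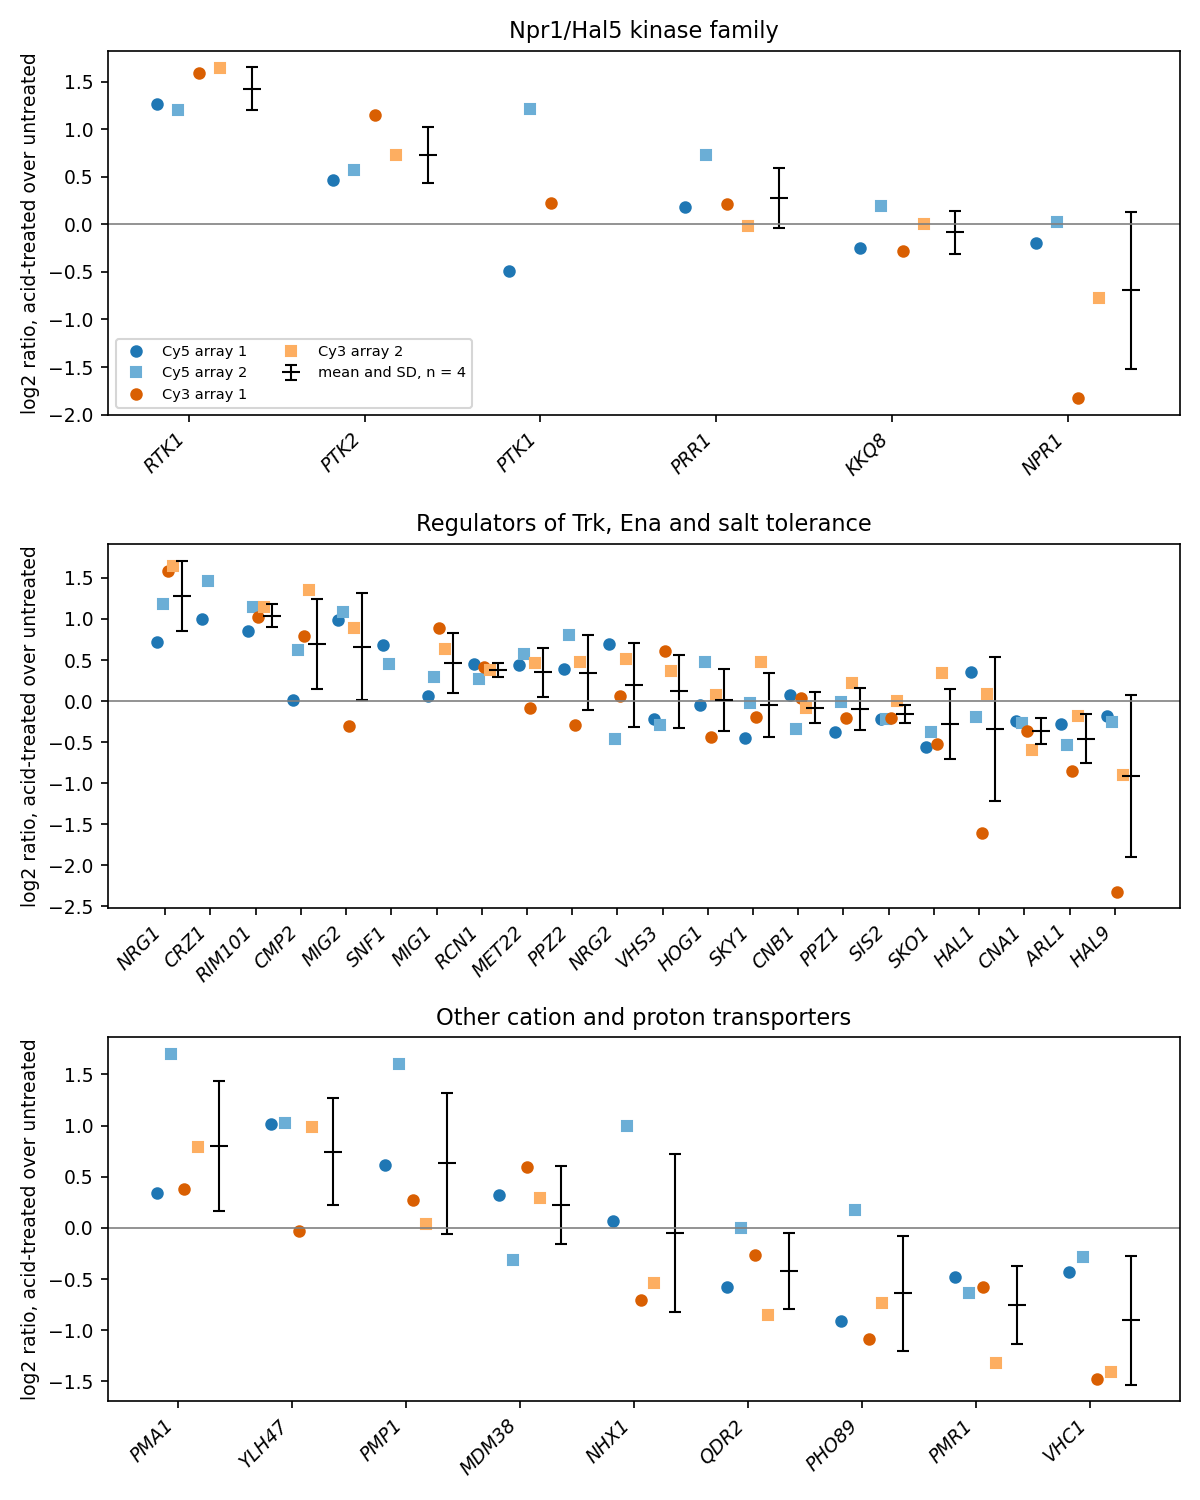
Log2 ratio of acid-treated over untreated RNA on each array for the genes of the 3 further lists with any value, ordered by mean, with the symbols of the plot of members by array and the mean and SD where n = 4. RTK1, PTK2, NRG1 and RIM101, which passed the test, have 4 points above 0, and several genes have Cy3 array 1 apart from the other arrays.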

How the data were processed

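The authors deposited 1 log2 ratio per gene and array, in 3 decimals; base 2 and the direction are readings of the values, and how signals were scanned, corrected and normalized is not stated. Per the labels' protocols, total RNA came from acid-phenol extraction and the dyes were coupled by indirect labelling. Signal over background is unknown, and the number of arrays limits the precision. Swapped arrays were taken as already turned, since all pairs of arrays correlated above 0.

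Ratios of the 5291 genes with at least 3 values entered limma 3.58.1 under R 4.3.3, where lmFit estimated the mean ratio and eBayes its two-sided p. Benjamini-Hochberg adjusted p under 0.05 was the threshold; 508 genes were not tested. The same code was tested on simulated data. Symbols are those of RefSeq assembly R64, matched by systematic name without regard to letter case. The members and lists were chosen with earlier results of these data known. Named genes are the members, further list genes past the threshold and the highest and lowest mean of each list, with exceptions stated. Alternatives were a dye term, the replicate number as a block, the mean of arrays of 1 number, centring, scaling by the median absolute ratio, quantile normalization, other minimums of values, robust variance, a minimum fold of 1.5 and leaving out each array.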

Additional observations from a re-analysis of the deposited data

How the results depend on the processing

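The ratios of the 8 members kept their sign under every alternative run. For members with 4 values the mean ratio cannot change under several of these. They are the dye term, the replicate block, averaging, other minimums of values, robust variance and the minimum fold. Centring hardly moved the ratios, since the array medians were near 0. The sign was thus tried mainly by scaling, quantile normalization and leaving out an array. The members kept their calls under a dye term, the replicate block, centring, scaling, quantile normalization, other minimums of values and robust variance. With same-numbered arrays averaged, 1 member was called (1 higher, 0 lower), with adjusted p = 0.0879 for TRK1, 0.0534 for ENA2 and 0.0684 for SAT4; 377 genes passed (306 higher, 71 lower) and 1 kinase family gene. Against a minimum fold of 1.5, 168 genes passed (165 higher, 3 lower), with 1 member (1 higher, 0 lower), 1 kinase family gene and 0 regulators. Both have fewer values or a stricter null by construction. Lower calls over all genes, 107 of 575 in the fit reported, were 207 with a dye term, 176 with the replicate block, 189 with scaling and 268 with quantile normalization. Of the other transporters, 2 were lower with a dye term, the replicate block, scaling or quantile normalization, and 1 with centring or a minimum of 4 values; 1 regulator was lower with a dye term. The cause was not tested.

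Without each array in turn, 179 to 936 genes passed (170 to 678 higher, 9 to 258 lower), with the highest number without Cy3 array 1. These fits took genes with at least 2 values, 5361 to 5562 genes, and adjusted over these. They thus differ from the fit reported in more than the array left out. Members called were 1 to 5 (1 to 3 higher, 0 to 2 lower), kinase family genes higher 1 to 2, regulators higher 0 to 4, and other transporters higher 0 to 1 and lower 0 to 1.

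The replicate block called 733 genes, 4 members among them, at a consensus correlation of -0.109 within blocks. A negative correlation narrows the standard error of the mean ratio. Calls kept under the block are therefore no guard against RNA shared by same-numbered arrays. Deviations of arrays of the same number from the mean of their orientation had r = 0.252, and 2 pairs are too few to take the number as a pairing. No gene named by the rule with 4 values had an array that stood apart by Dixon's criterion, among 16 tested. The other genes of the further lists and the neighbours that are not members were not put to this criterion. Among them YLH47, for example, had -0.03 on Cy3 array 1 against 0.98 to 1.02 on the other arrays. The neighbour RVS161 had 1.95 on Cy3 array 2 against 1.19 to 1.23 on the other arrays. The shift of the median of all genes was at most 0.0148 under any alternative.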

Other observations

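CRZ1, the transcription factor that calcineurin activates and that drives ENA1, had values on 2 arrays only, Cy5 arrays 1 and 2, and was not tested. Its log2 ratios there were 1.00 and 1.46. SNF1, a kinase of glucose derepression, was measured on the same 2 arrays, at 0.68 and 0.46. Both were singled out after their values were seen.

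The genes next to the members in the RefSeq assembly R64 were examined after the data were seen. Of 12 tested neighbours that are not members, 2 were higher and 1 lower in limma, beside 10.9% called of all genes. QCR8, a subunit of respiratory complex III that is transcribed toward HAL5, had log2 ratios of 1.69, 1.53, 1.92 and 1.73 (Cy5 arrays 1 and 2, then Cy3 arrays 1 and 2), with a mean of 1.72 ± 0.16 (adjusted p = 0.00105). RVS161, an amphiphysin-like gene of endocytosis that is transcribed toward SAT4, had ratios of 1.23, 1.19, 1.21 and 1.95 in that order (1.40 ± 0.37, adjusted p = 0.00640). HFL1, downstream of TRK2, had ratios of -0.75, -0.28, -1.01 and -0.90 (-0.74 ± 0.32, adjusted p = 0.0446). Whether signal of a neighbour enters the spots of HAL5 or SAT4 was not tested.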
